A study of Mus musculus with 6 samples.

Results

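The ZSCAN4 and TCSTV genes described here are 6 protein-coding genes of the 2-cell-like state, Zscan4c, Zscan4d, Zscan4f, Tcstv1, Tcstv3 and Zfp352, chosen by name among the 42450 genes of a total RNA count table. They were read singly and summed over near-identical copies. The table held 6 libraries of male mouse embryonic stem cells (mESC), 3 of the parental wild-type line E14tg2a.4 (WT) and 3 of its derivative Srrm2+/-. Srrm2+/- is a single gene-trap clone, CG0630, in which a cassette in exon 1 truncates 1 of the Srrm2 alleles. SRRM2 is a splicing factor found in nuclear speckles, and the comparison asks how its reduced dose changed gene expression. Both lines were cultured on gelatin in GMEM with LIF, the cytokine that maintains mESC self-renewal, and then in serum-free ESGRO medium with LIF. For that step the labels give 24 h or 72 h, whereas the study's methods give a single time between these for the RNA-seq cultures of both lines. Replicates were thawed from batches frozen at different passages, and WT passages were higher than those of Srrm2+/-. Clone, passage and genotype therefore cannot be told apart.

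In mouse embryos, the zygotic genome is switched on at the 2-cell stage, and a few cells in an mESC culture transiently enter a similar state. Those cells express the Zscan4 cluster, whose SCAN-domain zinc-finger proteins are known for roles in telomere lengthening and genome stability, together with Tcstv genes, Zfp352 and genes controlled by MERVL retroviral elements. The homeobox factor DUX activates many of these genes, with DPPA2 and DPPA4 acting before it, while chromatin repressors such as G9a, TRIM28 and variant Polycomb complexes hold them silent. In bulk RNA, fewer cells in this state and less RNA per such cell cannot be told apart.

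The Zscan4 members lie in tandem on chromosome 7 (GRCm38). Zscan4c spans chr7:11005745-11010547 on the plus strand, Zscan4d spans chr7:11161374-11166159 on the minus strand, and Zscan4f spans chr7:11397915-11402318 on the plus strand. Each has 4 exons in its longest transcript. Their promoters are shown because the copies carry almost the same control sequence and the same candidate DUX letters. RefSeq (GRCm38.p6) held promoter windows of 300 bases, from 250 before to 50 after the annotated start, for 4 of the 6 members. The windows are chr7:11005495-11005794 (plus strand), chr7:11166099-11166398 (minus strand) and chr7:11397665-11397964 (plus strand). They read 5′ to 3′, with capitals marking the letters TGATTNAA, part of the sequence that DUX prefers.
Zscan4c: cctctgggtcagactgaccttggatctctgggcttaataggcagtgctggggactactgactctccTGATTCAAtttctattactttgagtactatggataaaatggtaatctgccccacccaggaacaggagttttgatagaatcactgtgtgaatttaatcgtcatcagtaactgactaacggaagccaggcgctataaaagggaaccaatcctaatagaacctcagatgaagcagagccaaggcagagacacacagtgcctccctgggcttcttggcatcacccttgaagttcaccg
Zscan4d: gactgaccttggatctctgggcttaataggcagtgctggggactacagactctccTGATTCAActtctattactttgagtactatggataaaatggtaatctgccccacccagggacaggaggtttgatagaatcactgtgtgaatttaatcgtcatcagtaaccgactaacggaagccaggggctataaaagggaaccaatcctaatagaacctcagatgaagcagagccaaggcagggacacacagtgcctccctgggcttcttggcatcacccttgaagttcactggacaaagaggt
Zscan4f: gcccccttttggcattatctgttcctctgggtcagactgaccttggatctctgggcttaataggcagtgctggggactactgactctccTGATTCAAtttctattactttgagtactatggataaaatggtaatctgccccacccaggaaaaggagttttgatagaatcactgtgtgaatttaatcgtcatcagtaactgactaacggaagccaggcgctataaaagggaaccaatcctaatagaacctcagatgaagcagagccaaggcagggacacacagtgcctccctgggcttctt

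Over their aligned bases, the Zscan4c and Zscan4f windows were 99.3% identical, Zscan4c and Zscan4d 97.2%, and Zscan4d and Zscan4f 97.4%. The TGATTNAA match began at position -184 from the RefSeq start of Zscan4c, -195 from that of Zscan4d and -161 from that of Zscan4f. The RefSeq start of Zscan4d lies inside the gene span given above and is not its end. Its -195 therefore need not be a difference in spacing from Zscan4c. Searched on both strands, TGATTNAA occurred in 943 of 32851 promoters (2.87%). The Zfp352 window had no TGATTNAA. TGCACAC, a sequence that ZSCAN4 proteins can bind, was in none of the 4 member windows, and in 4.40% of all promoters. These matches describe letters only.

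The transcripts were nearly as alike. The longest transcripts of Zscan4c and Zscan4f shared 99.5% of aligned bases, Zscan4c and Zscan4d 97.5%, and Zscan4d and Zscan4f 97.8%. Of all 31-base words in the annotated transcripts, 91.5% of those of Zscan4c, 91.7% of those of Zscan4f and 65.0% of those of Zscan4d also occurred in another gene. Further copies, Zscan4a, Zscan4-ps1, Zscan4-ps2 and Zscan4-ps3, were not analysed here. They held 44.7 to 81.6% of the words of Zscan4c, 51 to 82.9% of those of Zscan4f and 36.2 to 51.3% of those of Zscan4d. Estimated counts of a single copy are therefore uncertain. The sum over Zscan4c, Zscan4d and Zscan4f does not depend on how reads were divided among those copies. It can still depend on how reads were divided between them and the copies not analysed. Tcstv1 and Tcstv3 shared 87.7% of aligned bases.

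The 6 libraries held 54151532 to 69933465 estimated counts. Srrm2 itself was lower in Srrm2+/- (log2 fold change -0.69, SE 0.05, edgeR quasi-likelihood test, Benjamini-Hochberg adjusted p = 2.38e-05). Markers of the labelled cell type were present: the 8 pluripotency genes summed to 4038 to 4252 CPM (counts relative to the TMM-scaled library total) in WT and 3365 to 3505 CPM in Srrm2+/-. Of them, 7 fell (Dppa5a, Zfp42, Nanog, Sox2, Esrrb, Klf4 and Tbx3) and Pou5f1 was not called. For this and the next marker lists, the shares over all genes tested were 11.7% called lower and 13.6% called higher. The 7 fibroblast markers summed to 2.85 to 3.22 CPM in WT and 5.21 to 6.76 CPM in Srrm2+/-. Of the 5 tested, 3 rose (Col1a1, Col1a2 and Twist2), and Dcn was at 0 in every WT library. Thy1 pointed lower and was not called (log2 fold change -0.70, edgeR adjusted p = 0.0939). Of the 7 primitive endoderm markers (2.39 to 2.71 against 2.57 to 3.65 CPM) 1 of the 5 tested rose, Dab2. Gata6 pointed higher and was not called (0.95, edgeR adjusted p = 0.261). Another 3 pointed lower and were not called, from Gata4 at -0.0038 to Sox7 at -0.77 (edgeR adjusted p = 0.0888 for Sox7). Of the 6 trophoblast markers (2.21 to 2.41 against 2.69 to 3.21 CPM) 1 of the 4 tested rose, Eomes, and Cdx2 was at 0 in every WT library. Gata3 pointed higher (0.38), another 2 of the 4 pointed lower, and none of these was called. The part of these marker differences in the results that follow was not tested.

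Among 18905 genes tested, 4781 (25.3%) were called at an adjusted p below 0.05. Those higher in Srrm2+/- made up 13.6% of genes tested and those lower 11.7%. Of the 6 members, 3 passed the filter on low counts and 2 of these were called, both lower in Srrm2+/-: Zscan4c and Zscan4f. Tcstv1, Tcstv3 and Zfp352 did not reach the filter, which asks for about 10 counts in 3 libraries.

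Zscan4f, a copy that encodes the full-length protein, had the highest estimated level of the members, a rank that can depend on how reads were divided. Its level was 2.88, 3.25 and 2.72 CPM in WT replicates 1 to 3, and 1.78, 2.02 and 1.73 CPM in Srrm2+/- replicates 1 to 3. Every Srrm2+/- library lay below every WT library, as was so for 20.0% of genes tested. WT averaged 2.95 ± 0.28 CPM and Srrm2+/- 1.85 ± 0.16 CPM (SD, n = 3 each), 62.6% of WT. The log2 fold change was -0.68 (SE 0.14, 95% confidence interval -1.003 to -0.35, edgeR adjusted p = 0.00847).

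Zscan4c, known as the main copy of mESC, stood at 1.46, 2.00 and 1.52 CPM in WT and at 0.96, 0.98 and 1.10 CPM in Srrm2+/-. These groups were also apart, and WT replicate 2 was the highest library. The means were 1.66 ± 0.29 and 1.01 ± 0.074 CPM (SD, n = 3 each), the second being 61.1% of the first. The log2 fold change was -0.71 (SE 0.19, interval -1.14 to -0.28, edgeR adjusted p = 0.0246). The call was kept without WT replicate 1 (edgeR adjusted p = 0.0295) or WT replicate 3 (edgeR adjusted p = 0.0395). It was lost without WT replicate 2, where the log2 fold change was -0.55 with edgeR adjusted p = 0.0914, and when each Srrm2+/- replicate in turn was left out (edgeR adjusted p from 0.0503 to 0.0760).

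Zscan4d, known as the main copy of the 2-cell embryo, was measured at 1.503, 2.21 and 1.38 CPM in WT and 0.99, 1.38 and 1.41 CPM in Srrm2+/-. The groups overlapped, since Srrm2+/- replicate 3 lay above WT replicate 3. Means were 1.70 ± 0.45 and 1.26 ± 0.23 CPM (SD, n = 3 each), and the gene was not called (log2 fold change -0.43, SE 0.23, interval -0.96 to 0.10, edgeR adjusted p = 0.225). That interval includes both no difference and the values of Zscan4c and Zscan4f. The log2 fold change was -0.19 without WT replicate 2 and -0.28 without Srrm2+/- replicate 1, and ranged from -0.56 to -0.50 when each of the other libraries was left out.

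**Figure D1:**
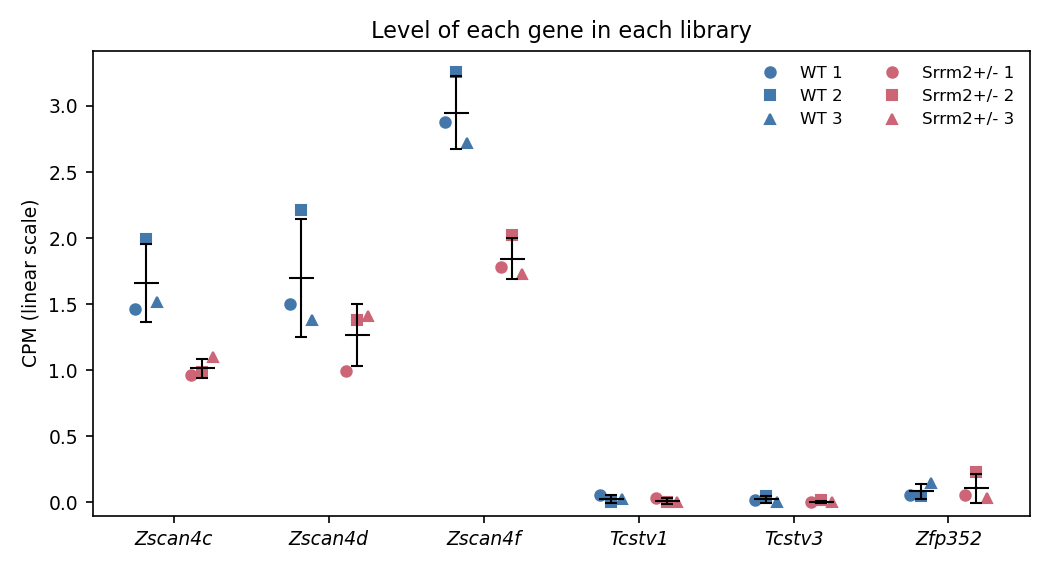
Level of the 6 genes in CPM on a linear axis, with 1 point for each library (WT blue, Srrm2+/- red, shapes for replicates) and black bars for the mean ± SD of 3 libraries. Zscan4c and Zscan4f show no overlap between groups, a pattern in the same direction that 20.0% of genes tested showed. Zscan4d overlaps, and Tcstv1, Tcstv3 and Zfp352 stay below 0.25 CPM.

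The sum over the copies was also lower in Srrm2+/-. Zscan4c, Zscan4d and Zscan4f together came to 5.84, 7.46 and 5.62 CPM in WT and 3.74, 4.39 and 4.24 CPM in Srrm2+/-. All Srrm2+/- libraries were below all WT libraries, a pattern in the same direction that 20.0% of genes tested showed. The means were 6.31 ± 1.00 and 4.12 ± 0.34 CPM (SD, n = 3 each), so Srrm2+/- held 65.4% of the WT level. In the fit with copies summed, where 4779 of 18903 rows (25.3%) were called, the log2 fold change was -0.61 (SE 0.13, interval -0.92 to -0.31, edgeR adjusted p = 0.0102). The rounded sums ranged from 301 to 431 counts in WT and from 259 to 303 in Srrm2+/-. Their 95% Poisson intervals, which cover counting error only, reached down to 5.003 CPM in WT and up to 4.92 CPM in Srrm2+/-, so the groups stayed apart beyond counting error. Adding the other listed copies, Zscan4b and Zscan4e, gave -0.62 (SE 0.13, edgeR adjusted p = 0.00748).

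**Figure D2:**
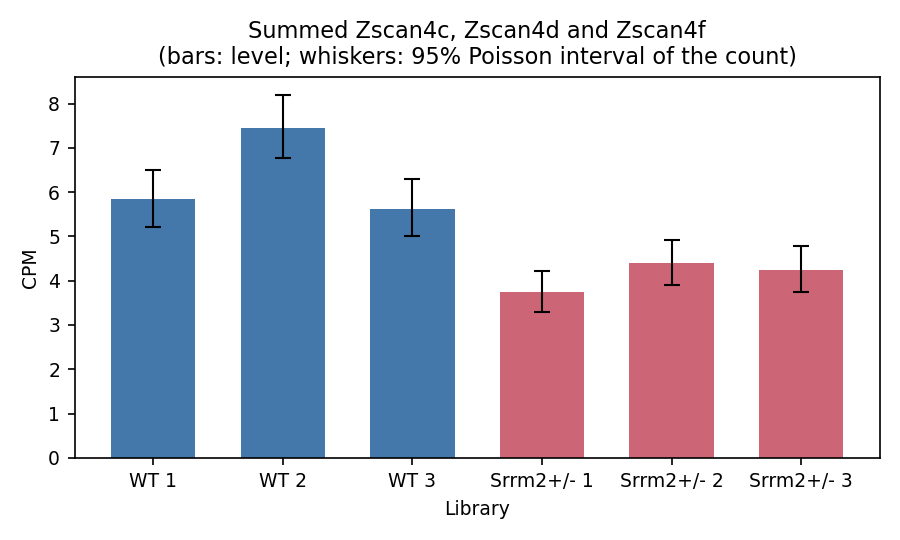
Summed level of Zscan4c, Zscan4d and Zscan4f in CPM for each library, with bars from 0 and whiskers for the 95% Poisson interval of the count. The WT bars stand at 5.62 to 7.46 CPM and the Srrm2+/- bars at 3.74 to 4.39 CPM.

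The copies kept similar proportions of the estimated counts. Zscan4f took 43.6 to 49.2% of the summed counts in WT and 40.8 to 47.7% in Srrm2+/-. Zscan4c took 25.04 to 27.0% and 22.4 to 25.9%. Zscan4d took 24.6 to 29.6% in WT and 26.6 to 33.3% in Srrm2+/-, and each copy's shares overlapped between the groups. Divided by the length of the longest transcript, the level of Zscan4f was 1.61 CPM per kb in WT and 1.01 in Srrm2+/-, that of Zscan4d 0.75 and 0.56, and that of Zscan4c 0.73 and 0.45. Zscan4c and Zscan4d did not differ beyond their spread in WT. By the same measure, the pluripotency factor Pou5f1 reached 622 CPM per kb in WT.

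The size of the Zscan4 difference was set beside genes of like depth and beside the pluripotency markers. Of 1358 genes tested with a mean count between those of the lowest and highest Zscan4 copy (80.0 to 144), 339 were called (24.96%) and 110 were called lower (8.10%). Per 1000 CPM of the pluripotency markers, summed Zscan4 stood at 1.45, 1.79 and 1.32 CPM in WT and 1.07, 1.29 and 1.26 CPM in Srrm2+/-. The groups remained apart on this ratio, but by little between WT replicate 3 and Srrm2+/- replicate 2. The markers changed unequally, so the ratio does not rank Zscan4 against each of them. Klf4, Tbx3 and Nanog stood at 56.5, 57.0 and 60.6% of WT, below the 65.4% of summed Zscan4. Esrrb, Zfp42, Sox2, Dppa5a and Pou5f1 stood at 76.6 to 97.3% of WT.

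Tcstv1 and Tcstv3, variable genes of the 2-cell stage, lie on chromosome 13 at chr13:119893388-119894785 (minus strand) and chr13:120316878-120318178 (plus strand). Estimated counts of Tcstv1 were 3, 0 and 1.26 in WT and 2.45, 0 and 0 in Srrm2+/-. Those of Tcstv3 were 1, 3 and 0 in WT and 0, 1.03 and 0 in Srrm2+/-. Both were near absent in both groups, with every library at or below the floor of 3 counts, equal to 0.043 to 0.056 CPM. Of their 31-base words, 28.6% of those of Tcstv1 and 51% of those of Tcstv3 also occurred in other genes. Gm21818 held the largest shares, 21.6% of the words of Tcstv1 and 31% of those of Tcstv3. Gm21761 held 12% and 23.5%, and the members also shared words with each other. These counts can therefore also depend on how reads were divided. Their sum was 4, 3 and 1.26 counts against 2.45, 1.03 and 0, and a difference was not detectable at this depth. Fitted with the filter lowered to at least 1 count, Tcstv1 (edgeR adjusted p = 0.719) and Tcstv3 (edgeR adjusted p = 0.556) were not called.

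Zfp352 encodes a zinc-finger protein of the early embryo and lies at chr4:90218820-90225702 on the plus strand. Its counts were 3, 3 and 8 in WT and 4, 16 and 2 in Srrm2+/-. The highest and the lowest library were both Srrm2+/-, so the groups overlapped. With the lowered filter the log2 fold change was 0.36 with an SE of 0.84 (edgeR adjusted p = 0.843). Per kb, Zfp352 reached 0.037 CPM in WT, against 0.020 for Tcstv1 and 0.030 for Tcstv3. Counts this low do not rank these genes.

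The genes around each locus were read next. Within 500 kb of the Zscan4 members, 20 other genes were in the table, 18 of them at 0 in all libraries, and none passed the filter. The most counted of them was Zscan4e, with a mean of 5.46 counts. Around Tcstv1, 10 of 30 genes were tested and 2 rose, where 13.6% of all genes tested rose. These 2 were the sterol synthesis enzyme gene Hmgcs1 (log2 fold change 0.57, edgeR adjusted p = 0.00216) and the translation factor gene Paip1 (0.15, edgeR adjusted p = 0.0274). Around Tcstv3, 2 of 18 were tested and neither was called. Around Zfp352, none of 5 passed the filter.

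Most of the other genes of the 2-cell-like programme did not reach the filter on low counts. Of 43 listed, 37 were in the table, 3 of these were at 0 throughout, 23 did not pass the filter and 14 were tested. Of these 14, none was called by edgeR or DESeq2, where edgeR called 25.3% of all genes tested. An unadjusted p below 0.05 was given to 1 by edgeR and to none by DESeq2. The 14 had mean counts of 10.5 to 84.0, against 80.0 to 144 for the Zscan4 members. At such counts a missing call does not show a missing difference. With limma voom 1 was called, BB287469. Their median log2 fold change was -0.17 against -0.0025 for all genes tested, and 8 of 14 pointed lower. With the filter of at least 1 count, edgeR called 4581 of 30080 genes. Of the listed genes 33 were then tested, none was called by edgeR and 3 had an unadjusted p below 0.05.

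The most abundant of them behaved alike in having overlapping groups. Gm21761 had 1.96, 1.47 and 1.28 CPM in WT and 0.81, 1.48 and 1.35 CPM in Srrm2+/- (log2 fold change -0.37, interval -0.97 to 0.23). Gm5662, an EIF1A-like gene, had 1.54, 1.49 and 1.18 CPM in WT and 0.96, 1.13 and 1.42 CPM in Srrm2+/- (-0.27, interval -0.74 to 0.21). Usp17la, a deubiquitinase gene, had 1.17, 1.11 and 0.82 CPM in WT and 0.65, 1.07 and 0.40 CPM in Srrm2+/- (-0.56, interval -1.33 to 0.22). Gm6763 had a log2 fold change of -0.25 (interval -1.05 to 0.55). Each of these intervals includes both 0 and the value of summed Zscan4.

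2 EIF1A-like genes that are nearly the same sequence, singled out after their values were seen, went opposite ways. Counts of BB287469 were 63.6, 49.0 and 44.7 in WT and 0, 0 and 29.6 in Srrm2+/- (log2 fold change -2.59, edgeR adjusted p = 0.0888). Gm4027, which holds 95.4% of the 31-base words of BB287469, was counted at 0, 19.7 and 22.5 in WT and 39.3, 45.7 and 46.9 in Srrm2+/- (1.39, edgeR adjusted p = 0.192). Summed over 7 EIF1A-like genes, the level was 3.88, 3.61 and 3.63 CPM in WT and 2.74, 3.08 and 3.98 CPM in Srrm2+/-. The groups overlapped on the sum (-0.18, SE 0.16, interval -0.54 to 0.17, edgeR adjusted p = 0.443). The 5 Usp17l genes summed to 1.26 to 1.67 CPM in WT and 0.95 to 1.65 CPM in Srrm2+/- (-0.33, interval -0.90 to 0.24). The 5 Tdpoz genes summed to at most 6.34 counts in any library and did not pass the filter.

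**Figure D3:**
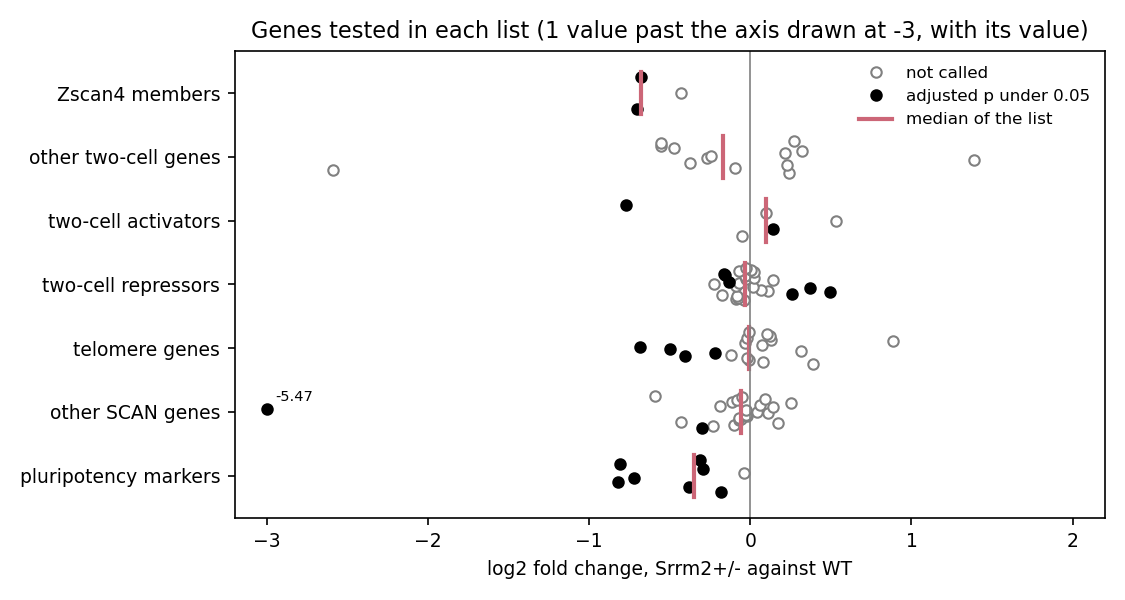
log2 fold change of each gene tested in each list, with filled points for adjusted p below 0.05 and a red bar for the median of the list. Zscan4c and Zscan4f are called lower and none of 14 other 2-cell genes is called, where 25.3% of all genes tested were called. Zscan18, at -5.47, is drawn at the edge of the axis.

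Among 7 activators of the 2-cell-like state, 5 were tested, 1 rose and 1 fell, where 25.3% of all genes tested were called. Nr5a2, a nuclear receptor that activates zygotic and pluripotency genes, stood at 76.2, 79.1 and 82.4 CPM in WT and 47.2, 44.5 and 47.5 CPM in Srrm2+/-. The groups were far apart, with a log2 fold change of -0.77 (SE 0.05). Dppa4 rose by a small amount (0.14, edgeR adjusted p = 0.0176), with 126 to 128 CPM in the WT libraries and 137 to 142 CPM in the Srrm2+/- libraries. Its partner Dppa2 was not called (-0.05, interval -0.16 to 0.05), nor were Nelfa (0.10, interval -0.04 to 0.23), a maternal elongation factor subunit, and Gata2 (0.53, interval -0.41 to 1.48). Duxf3, a double homeobox gene, was counted at 3.06, 0 and 0 in WT and 0, 2.00 and 1.45 in Srrm2+/-, which is near the floor of 3 counts in both groups.

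All 25 repressors of the state were tested, of which 3 rose, 3 fell and 19 were not called. The share called was close to the 25.3% of all genes tested. The H3K9 methyltransferase genes Ehmt2 and Ehmt1, whose products form the G9a/GLP complex, rose by 0.49 and 0.26 on the log2 scale (edgeR adjusted p at most 0.0059). Ehmt2 moved from 64.7 to 69.7 CPM in WT to 95.3 to 95.8 CPM in Srrm2+/-, with no overlap. Lin28a, an RNA-binding protein gene, rose by 0.37. Setdb1, another H3K9 methyltransferase gene, fell by 0.16, and the variant Polycomb genes Rybp and Pcgf6 fell by 0.16 and 0.14 (edgeR adjusted p of 0.0232 to 0.0353 for these that fell). The most abundant, Ncl (-0.07), Rif1 (-0.03), Trim28 (-0.07) and Mga (-0.09), were not called. The median of the list was -0.03. The fall of Setdb1, Rybp and Pcgf6 depended on the libraries used: without WT replicate 1, WT replicate 3 or Srrm2+/- replicate 2 none of the repressors was called lower.

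Telomere genes were listed because of the known role of Zscan4. Of 18 tested, 4 fell and none rose, with a median of -0.01. Across all genes tested, 11.7% were called lower and 13.6% higher. The telomerase RNA gene Terc was called higher by DESeq2 and without WT replicate 2, and Pot1b, a shelterin component gene, without WT replicate 1. Smc1b, a meiotic cohesin subunit, fell by 0.69, from 25.6 to 31.5 CPM in WT to 16.8 to 19.1 CPM in Srrm2+/-. Rtel1, a helicase acting at telomeres, fell by 0.50, Dkc1, the dyskerin subunit of telomerase, by 0.41, and Pot1a, a shelterin component, by 0.22 (edgeR adjusted p at most 0.0079). Atrx (0.08) and Terf1 (0.13) were not called.

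Of 23 other genes encoding SCAN-domain zinc-finger proteins, all were tested and 2 fell, where 11.7% of all genes tested fell. The list median was -0.06. Zkscan1 fell by 0.30, from 67.9 to 68.6 CPM in WT to 53.7 to 56.4 CPM in Srrm2+/-. Counts of Zscan18 were 0.28, 465 and 267 in WT and 0.0024, 3.26 and 15.8 in Srrm2+/-. WT replicate 1 lay within the Srrm2+/- range, so its groups overlapped despite a fitted value of -5.47 (SE 1.48, edgeR adjusted p = 0.0256), and DESeq2 and limma voom did not call it. The most abundant others, Zscan26 (-0.08), Zkscan5 (-0.07) and Zkscan8 (0.11), were not called.

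The genes whose profile was most like that of summed Zscan4 were searched among 13559 genes whose mean log2 CPM was 0 or more. Likeness was the root mean square difference of log2 CPM, centred on each gene's mean over the 6 libraries. The closest was the noncoding RNA gene Tmem51os1 (0.041), followed by Gm26397 (0.054), Rnf213, a RING-finger ATPase gene (0.059), Jakmip1 (0.063) and Epp13 (0.069). Each was lower in Srrm2+/- and highest in WT replicate 2, which follows from their choice by likeness and is not a separate result.

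**Figure D4:**
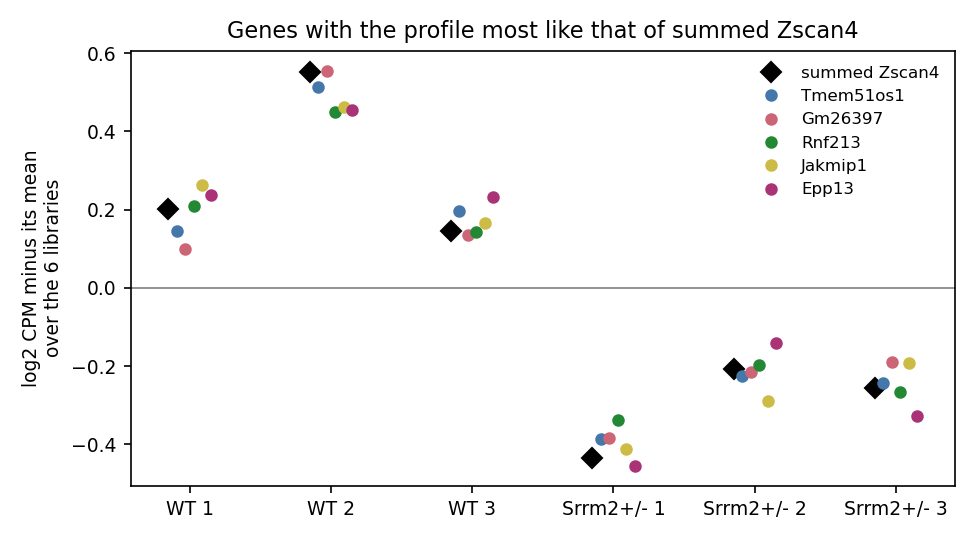
log2 CPM minus its mean over the 6 libraries, for summed Zscan4 (black diamonds) and the 5 genes with the most similar profile (circles). All 6 profiles are positive in WT, highest in WT replicate 2 at 0.45 to 0.56, and negative in Srrm2+/-. The 5 genes were chosen for this likeness.

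The direction of the Zscan4 difference was the same in every fit. The sum remained called when each library was left out in turn, with log2 fold changes of -0.69 to -0.47 and edgeR adjusted p of 0.0119 to 0.0425. Zscan4f also remained called in each of these fits, with values of -0.75 to -0.60. Zscan4d was called in none of them. Zscan4c was called in 2 of these 6 fits.

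**Figure D5:**
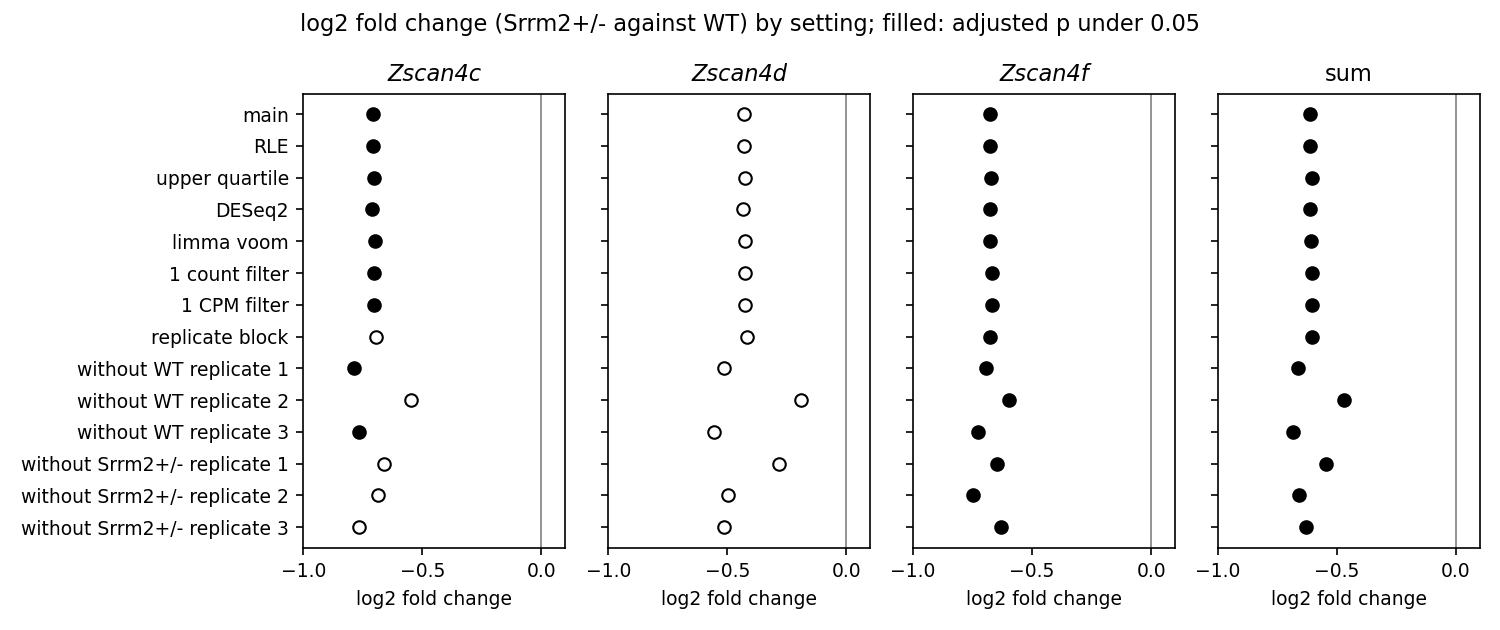
log2 fold change of Zscan4c, Zscan4d, Zscan4f and their sum under each tool, filter, replicate block and left-out library, with filled points for adjusted p below 0.05. All points lie below 0, the sum and Zscan4f are filled throughout, and Zscan4d is open throughout.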

How the data were processed

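Total RNA of 3 WT and 3 Srrm2+/- mESC samples was sequenced as paired ends from stranded libraries. The authors pseudo-aligned reads with kallisto 0.46.1 to the GENCODE M24 transcriptome and deposited estimated counts per gene, with no normalisation. Kallisto divides reads among near-identical copies, which bears on each Zscan4 copy. Counts were rounded, filtered with filterByExpr (minimum count 10, total 15), scaled by TMM and tested with edgeR 4.0.16 (R 4.3.3) using the quasi-likelihood test (two-sided), with Benjamini-Hochberg adjustment over 18905 genes. Scripts were tested on simulated data. DESeq2 1.42.0 and limma 3.58.1 were alternatives. log2 CPM used a prior count of 2. Coordinates and 31-base words came from GENCODE M21 (GRCm38), which matched 42156 of 42450 IDs, and promoters from RefSeq.

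Members and lists were chosen with earlier results of these data known. Named genes were Srrm2, the members, and of each list those called and the 4 most abundant. Also named were called neighbours within 500 kb and the 5 genes of most similar profile. Replicates are separately frozen batches of 1 clone per genotype, so p-values measure the spread between these cultures.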

Additional observations from a re-analysis of the deposited data

How the results depend on the processing

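Summed Zscan4 and Zscan4f kept their direction and their call under RLE and upper quartile scaling, DESeq2, limma voom, both other filters, the replicate block and each left-out library. With replicate number as a block, Zscan4c was no longer called (log2 fold change -0.70, edgeR adjusted p = 0.0540), so 1 member was called. Deviations of same-numbered libraries correlated at -0.028 to -0.034 over all genes tested. That gave no sign of pairs, but counting noise weighs on such a correlation, so it cannot exclude them. The block changed 4781 calls to 4166. Counting only genes changed by 1 or more on the log2 scale left 1153 called genes and 0 called members. DESeq2 and limma voom each called 1 other SCAN gene, and limma voom called 1 other 2-cell gene. Leaving out 1 library at a time gave 1 to 2 called members, 0 to 1 other 2-cell genes, 1 to 2 activators, 3 to 6 repressors and 1 to 3 other SCAN genes. The range for all called genes was 3515 to 4122. The activator count fell to 1 without WT replicate 3 or Srrm2+/- replicate 3, where Dppa4 was lost, and the other 2-cell gene was BB287469 without Srrm2+/- replicate 3. Each left-out fit had fewer libraries, and the cause of the other changes was not tested. The sums over EIF1A-like, Usp17l and Tdpoz genes were chosen after seeing the data. Depth limits Tcstv1, Tcstv3 and Zfp352, whose libraries held 0 to 16 counts.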
